A study of Mus musculus with 4 samples.

Results

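The genes described here are 10 members of the SOX family of transcription factors in cultured mouse spermatogonia, namely Sox3, Sox4, Sox5, Sox6, Sox9, Sox11, Sox12, Sox13, Sox15 and Sox30. They were chosen by name, because Sox3 had the highest positive difference among the transcription factors that the study tied to nutrient restriction, and the others were its relatives. Because the genes were chosen on the comparison of the 2 groups of libraries, their differences between those groups are given as descriptions with no p-value, and nothing is read from how many of them the fit over all genes called. They make up 10 of the 55421 genes in the deposited count table and 10 of its 20 protein-coding SOX family genes.

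RNA-seq was performed on spermatogonial stem cell (SSC) cultures, which are primary cultures of undifferentiated spermatogonia set up from testes of neonatal CD1 mice. In the Veh group (2 libraries) the cultures remained in complete SSC medium with vehicle. In the NRRA group (2 libraries) most of that medium was exchanged for Earle's balanced salt solution to restrict nutrients, and retinoic acid (RA) was given at the same time, so the parts played by nutrient restriction and by RA cannot be told apart in these libraries. All cultures were kept on irradiated mouse embryonic fibroblast feeder cells. The study describes the libraries of a group as independent biological replicates. The standard deviations below measure the spread between them. The standard errors come from a fit that also draws on the spread of other genes.

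SOX proteins bind DNA through the HMG box, a domain that inserts into the minor groove and bends the helix, and related members that share a subgroup often act on the same target genes. SOX3 belongs to the SOXB1 subgroup with SOX1 and SOX2, is encoded on the X chromosome and is known in the testis from spermatogonia on their way to differentiation. In mice that lack Sox3, spermatogenesis is impaired at the spermatogonial stage.

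The stretches that code for the HMG box show how closely the members are related, and 4 of them are printed below. Sox3 is the gene on which the set was built, Sox2 belongs to the same SOXB1 subgroup, Sox4 had the highest level of the 10 genes per kilobase of exon, and Sox13 had the most negative difference between groups. The sequences run 5′ to 3′ on the coding strand, come from GENCODE release M21 transcripts (GRCm38, mm10) and hold 237 bases, or 79 codons, each. Capitals mark bases that differ from Sox3 at the same position.
Sox3 (chrX:60892774-60893010, minus strand): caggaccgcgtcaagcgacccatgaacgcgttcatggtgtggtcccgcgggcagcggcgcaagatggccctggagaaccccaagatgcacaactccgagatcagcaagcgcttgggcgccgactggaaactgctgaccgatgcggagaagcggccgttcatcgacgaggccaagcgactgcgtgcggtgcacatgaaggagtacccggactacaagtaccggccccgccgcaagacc
Sox2 (chr3:34650533-34650769, plus strand): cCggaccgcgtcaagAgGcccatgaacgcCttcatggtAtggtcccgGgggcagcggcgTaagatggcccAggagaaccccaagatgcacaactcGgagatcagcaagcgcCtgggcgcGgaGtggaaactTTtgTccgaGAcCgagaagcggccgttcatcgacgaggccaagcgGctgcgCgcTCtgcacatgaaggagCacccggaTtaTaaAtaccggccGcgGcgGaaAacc
Sox4 (chr13:28952620-28952856, minus strand): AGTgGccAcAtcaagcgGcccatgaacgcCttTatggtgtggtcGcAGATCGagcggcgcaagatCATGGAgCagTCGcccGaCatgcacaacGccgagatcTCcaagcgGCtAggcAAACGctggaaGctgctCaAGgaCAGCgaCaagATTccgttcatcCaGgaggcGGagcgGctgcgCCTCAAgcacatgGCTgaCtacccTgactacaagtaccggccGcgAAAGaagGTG
Sox13 (chr1:133384552-133385580, minus strand, 2 exons joined): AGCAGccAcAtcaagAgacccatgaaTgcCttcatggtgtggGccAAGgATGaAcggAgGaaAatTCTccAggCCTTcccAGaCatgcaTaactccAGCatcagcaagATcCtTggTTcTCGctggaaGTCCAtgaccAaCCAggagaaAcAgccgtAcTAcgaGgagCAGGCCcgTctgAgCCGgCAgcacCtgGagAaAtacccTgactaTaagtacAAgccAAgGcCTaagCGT

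The box of Sox2 differed from that of Sox3 at 30 of 237 bases (87.3% identity). Among the 10 genes the next closest was Sox15, with 76.8% identity and 55 differing bases. Sox9, Sox12, Sox4 and Sox11 lay together at 69.6%, 69.2%, 68.4% and 68.4%, with 72, 73, 75 and 75 differing bases. The boxes of the SOXD genes Sox13, Sox5 and Sox6 were further away, at 62.4%, 62.0% and 60.3%. The most distant was Sox30, at 51.1% identity with 116 differing bases. Over whole transcripts, the longest exact stretch that Sox3 shared with any of the other 9 genes was 23 bases, in Sox12, and it was 32 bases for Sox2. No stretch of at least 100 bases with at least 95% identity to another gene was found for Sox3.

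The Veh libraries held 28022265 and 30715160 counts in all, and the NRRA libraries held 31604769 and 29214798. Levels below are counts per 1000000 (CPM) of the library size scaled with the trimmed mean of M-values (TMM), and 3 counts correspond to 0.0921 to 0.111 CPM. Each log2 fold change sets NRRA against Veh and comes with its standard error (SE) from a fit of all genes with edgeR, in which a gene was called at an adjusted p under 0.05. Of the 20232 genes tested, 56.4% were called, 27.9% as higher and 28.4% as lower in NRRA. All 10 SOX genes passed the filter on low counts. Among them 4 values were called higher, 5 were called lower and 1 was not called, which is set beside the 56.4% only as background, since the genes were chosen on this contrast. Their median log2 fold change was -0.40, with 0.00029 over all genes tested.

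Sox3 is a gene of 1 exon on the X chromosome (60891366 to 60893430, minus strand) that overlaps no other annotated gene. The Veh libraries held 460 and 360 counts of Sox3, and the NRRA libraries held 1582 and 1634. Both NRRA libraries lay above both Veh libraries. The mean level was 14.5 ± 3.44 CPM (SD, n = 2) in Veh against 51.4 ± 4.03 CPM in NRRA, a 3.56-fold higher value in NRRA (log2 fold change 1.83, SE 0.11). The Veh libraries stood apart from each other, with 17.0 and 12.1 CPM, and leaving out Veh replicate 1 or Veh replicate 2 gave a log2 fold change of 2.09 or 1.60. A fit with DESeq2 gave Sox3 an SE of 0.25, wider than the 0.11 of edgeR. Among the 10 genes Sox3 alone had a value more than 2-fold higher in NRRA, and it was chosen for that rise. Another 4 had values more than 2-fold lower. Of the 20232 genes tested, 1272 were called with values at least 2-fold higher and 1421 with values at least 2-fold lower.

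**Figure D1:**
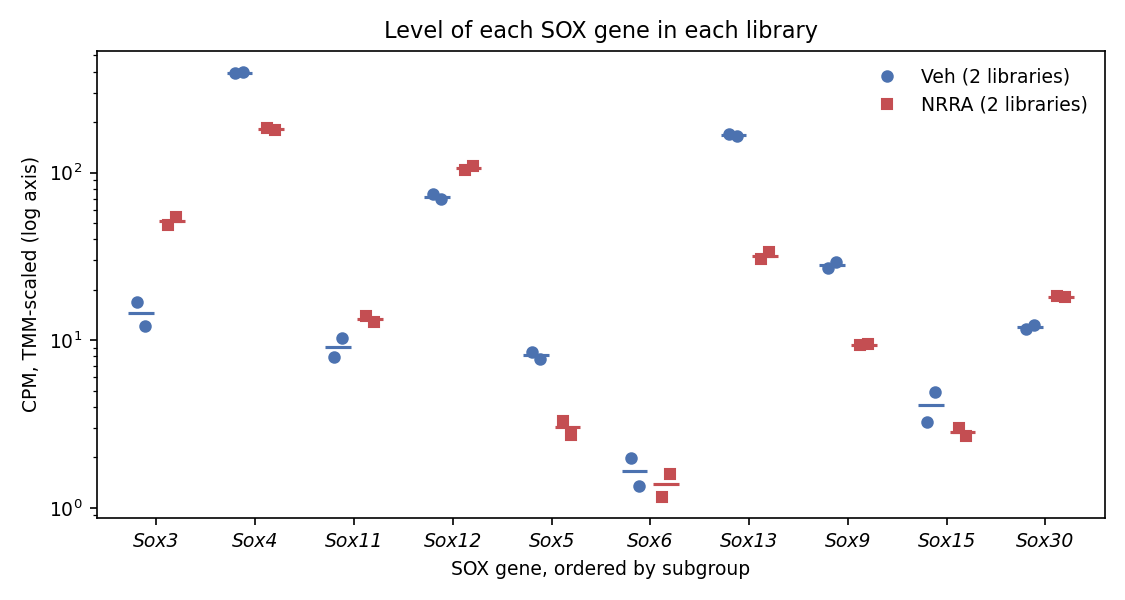
Level of each of the 10 SOX genes in each library, in TMM-scaled CPM on a log axis, with 1 point for each library and a short line at the mean of the 2 libraries of a group. Sox3 lies at 17.0 and 12.1 CPM in Veh and at 48.6 and 54.3 CPM in NRRA, and the groups of Sox6 overlap.

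The SOXC genes Sox4, Sox11 and Sox12 encode activators of similar structure, known from progenitor cells of many tissues, and did not move as a group. Sox4 (chromosome 13, 28948919 to 28953713, minus strand, 1 exon) had 391 and 399 CPM in Veh and 184 and 180 CPM in NRRA. Per kilobase of exon it was the highest of the 10 genes in both groups, and its level was 2.17-fold lower in NRRA (log2 fold change -1.12, SE 0.03). Of its exonic bases, 54.6% overlap Gm26735 on the opposite strand, and reads of the pair can be told apart only if the counting used strand, which is not given in the sources used here. The deposited counts hold no gene by the name Gm26735, so none can be given for it. Sox12 (chromosome 2, 152393611 to 152398063, minus strand) had 74.3 and 69.6 CPM in Veh and 104 and 110 CPM in NRRA. Its level was 1.49-fold higher in NRRA (log2 fold change 0.58, SE 0.04), with no overlap between the groups.

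Sox11 (chromosome 12, 27334264 to 27342574, minus strand), best known from developing neurons, was lower than both per kilobase of exon and had 215 and 308 counts in Veh and 456 and 386 counts in NRRA. In CPM the libraries lay at 7.93 and 10.4 in Veh and at 14.0 and 12.8 in NRRA. The groups did not overlap, but the gap between the Veh libraries was about as wide as the gap from the higher of them to the lower NRRA library. The log2 fold change was 0.55 (SE 0.12), and it ranged from 0.38 without Veh replicate 1 to 0.76 without Veh replicate 2. The SOXC values thus had opposite signs, with Sox4 lower and Sox11 and Sox12 higher in NRRA.

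SOXD proteins lack a transactivation domain of their own and pair with each other through a coiled coil. Sox13 (chromosome 1, 133382303 to 133424377, minus strand) had 169 and 166 CPM in Veh and 30.4 and 33.6 CPM in NRRA. Per kilobase of exon it came after Sox4 alone in Veh, and its level was 5.25-fold lower in NRRA, the most negative value of the set (log2 fold change -2.39, SE 0.05). Sox5 (chromosome 6, 143828425 to 144781977, minus strand) had 231 counts in each Veh library and 108 and 82 counts in the NRRA libraries, which corresponds to 8.14 ± 0.53 and 3.02 ± 0.42 CPM (SD, n = 2). Its log2 fold change was -1.42 (SE 0.15). The antisense transcript Sox5os1, which overlaps 9.25% of the exonic bases of Sox5 on the opposite strand, had 5 and 9 counts in Veh and 3 and 4 counts in NRRA.

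Sox6 (chromosome 7, 115470872 to 116038796, minus strand), which acts with Sox5 in cartilage and other tissues, had the lowest level of the 10 genes per kilobase of exon. The Veh libraries held 54 and 40 counts and the NRRA libraries 38 and 48. The groups overlapped, the log2 fold change of -0.27 was smaller than its SE of 0.29, and it changed sign when Veh replicate 1 was left out (0.03). A difference in Sox6 could therefore not be told from the spread in these libraries.

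Sox9, the SOXE member of the set, encodes the factor that directs Sertoli cell formation and cartilage development. The gene (chromosome 11, 112782224 to 112787760, plus strand) had 27.1 and 29.4 CPM in Veh and 9.33 and 9.43 CPM in NRRA. The NRRA libraries lay close together and far below the Veh libraries, with a 3.01-fold lower level (log2 fold change -1.59, SE 0.09). Markers of other cell types that could carry Sox9 were checked in the same libraries. When the cultures were set up, the study discarded adherent somatic cells by differential plating, a step meant to enrich stem cells. How many Sertoli cells remained was not tested. Of 10 Sertoli cell genes, Fshr, Cst9 and Cst12 had 0 counts in all libraries, Amh had 1 to 3 counts, 5 passed the filter (2 called higher, against 27.9% over all genes, and 3 not called), and the 10 genes together made up 0.0011% to 0.00142% of all counts. Of 20 fibroblast feeder genes, 17 were called lower in NRRA (28.4% over all genes), 2 were called higher (Col3a1 and Pdgfra) and Postn was not called. The number called lower was 14 with DESeq2, with library size only and without NRRA replicate 2, where Col1a1, Dcn and S100a4 were not called. The feeder genes together made up 1.04% and 1.03% of counts in Veh and 0.852% and 0.835% in NRRA, with a median log2 fold change of -0.33. Their part in the lower values of Sox9 and of the other SOX genes was not tested. In these bulk libraries, fewer cells of a type and less RNA per cell cannot be told apart.

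Sox15, the SOXG member and a factor studied in stem cells and muscle, had 88 and 147 counts in Veh and 97 and 81 counts in NRRA (chromosome 11, 69655314 to 69656727, plus strand). By CPM, the lower Veh library (3.24) lay just above the higher NRRA library (2.98). The log2 fold change of -0.54 (SE 0.20) rested on Veh replicate 2, and it was -0.19 and not called without that library. On the opposite strand Mpdu1, with 816 to 920 counts a library, overlaps 3.6% of its exonic bases. Sox30, the SOXH member, is a regulator of genes used by spermatids after meiosis. It had 11.6 and 12.4 CPM in Veh and 18.3 and 18.0 CPM in NRRA (chromosome 11, 45980310 to 46017994, plus strand). The libraries of each group lay close together, and the level was 1.51-fold higher in NRRA (log2 fold change 0.60, SE 0.09).

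**Figure D2:**
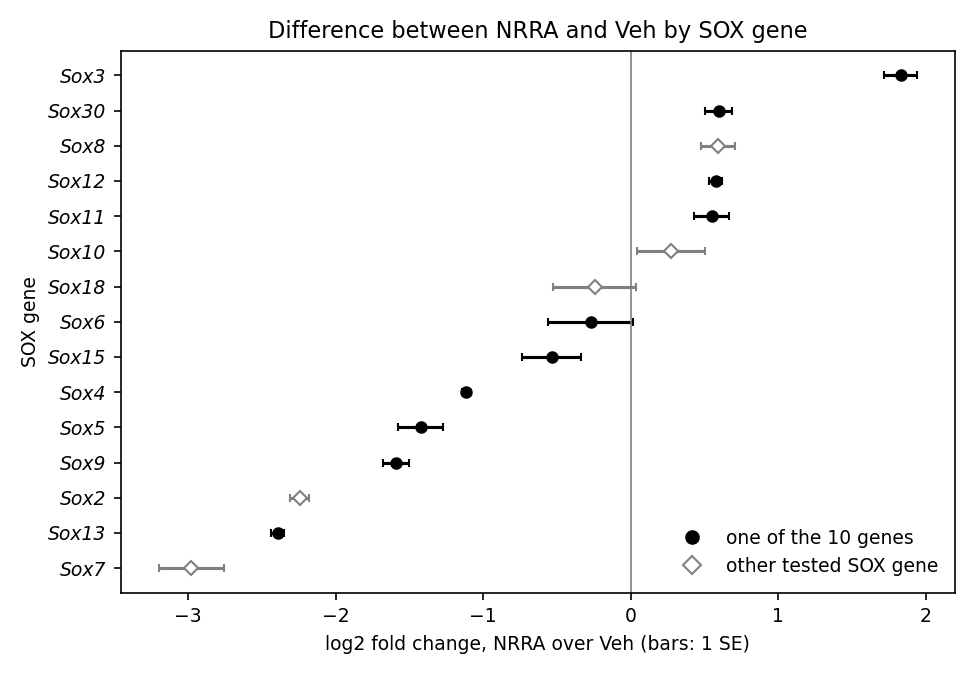
Log2 fold change of NRRA over Veh for the 10 SOX genes (filled circles) and the 5 other SOX genes that passed the filter on low counts (open diamonds), with bars of 1 SE. Sox3 lies at 1.83, apart from the group of Sox30, Sox8, Sox12 and Sox11 between 0.55 and 0.60, and Sox13 at -2.39 has the most negative value of the 10 genes.

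Levels of different genes were compared only per length, as CPM per kilobase of annotated exon. In Veh the order ran from Sox4 (82.4 ± 1.10 CPM per kilobase, SD, n = 2) through Sox13 (38.9 ± 0.489), Sox12 (16.2 ± 0.750), Sox3 (7.04 ± 1.66), Sox9 (6.83 ± 0.389), Sox15 (4.75 ± 1.39), Sox30 (4.01 ± 0.186), Sox11 (1.10 ± 0.206) and Sox5 (0.566 ± 0.037) to Sox6 (0.112 ± 0.031). Sox3 and Sox9, and likewise Sox15 and Sox30, had overlapping library values and did not differ beyond their spread. In NRRA the level of Sox4 was 38.0 ± 0.700 CPM per kilobase and still the highest of the set. Sox3 followed with 24.9 ± 1.95 and Sox12 with 24.1 ± 0.968, and their library values overlapped. Next came Sox13 at 7.42 ± 0.528, then Sox30 at 6.06 ± 0.062, Sox15 at 3.29 ± 0.236, Sox9 at 2.27 ± 0.017, Sox11 at 1.61 ± 0.100, Sox5 at 0.210 ± 0.029 and Sox6 at 0.0931 ± 0.020. Which neighbours overlapped depended on the length used. Per kilobase of coding sequence alone, Sox3 lay below Sox9 in Veh (10.8 ± 2.55 and 18.6 ± 1.06) and below Sox12 in NRRA (38.1 ± 2.99 and 114 ± 4.58), in both cases with no overlap.

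Summed over the 10 genes, the level per kilobase was 162 in both Veh libraries, against 106 and 110 in NRRA. Sox3 made up 5.08% and 3.62% of that sum in Veh and 22.1% and 24.0% in NRRA. With coding length its shares were lower, at 2.42% and 1.72% in Veh and 10.8% and 11.8% in NRRA. The direction in which the share of the SOXC genes moved depended on the length used. With exon length it was 61.4% and 61.7% in Veh and 59.8% and 58.2% in NRRA. With coding length it was 73.7% and 74.0% in Veh and 78.3% and 77.2% in NRRA. By exon length, Sox4 went from 50.5% and 51.3% to 36.2% and 34.2%, and Sox12 from 10.3% and 9.64% to 22.0% and 22.6%. The share of the SOXD genes was 24.7% and 24.2% in Veh and 6.93% and 7.39% in NRRA, nearly all of it from Sox13. These shares are descriptions of the same contrast that chose the genes.

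**Figure D3:**
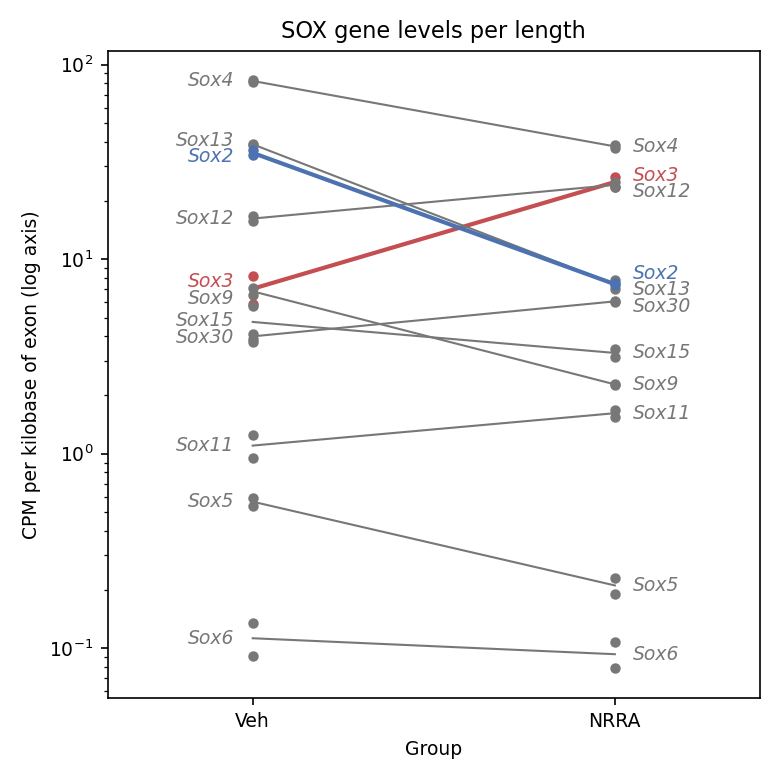
Level per kilobase of exon (CPM per kilobase, log axis) of the 10 SOX genes and of Sox2 in each library, with lines joining the group means of Veh and NRRA. The lines of Sox3 (red, from 7.04 to 24.9) and Sox2 (blue, from 35.2 to 7.43) cross, and Sox4 is the highest in both groups.

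Sox2, the SOXB1 relative of Sox3 and a core factor of pluripotent and neural stem cells, is not one of the 10 genes but shares its subgroup. It had 70.2 and 74.4 CPM in Veh and 15.1 and 15.5 CPM in NRRA, and fell by 2.24 on the log2 scale (SE 0.06, edgeR adjusted p = 7.28e-21). Per kilobase of exon, the ratio of Sox3 to Sox2 was 0.241 and 0.162 in Veh but 3.21 and 3.49 in NRRA, and with coding length it was 0.171 and 0.115, then 2.28 and 2.49. Sox2 was thus the more abundant of the pair in both Veh libraries and Sox3 in both NRRA libraries. The sum of Sox3 and Sox2 was 42.4 and 42.0 CPM per kilobase in Veh and 30.9 and 33.8 in NRRA. Sox1, the remaining SOXB1 gene, had 1 to 9 counts in the 4 libraries and did not pass the filter.

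Among the 10 other SOX genes, 5 passed the filter, of which 1 rose, 2 fell and 2 were not called, against 56.4% called over all genes. Sox7, a SOXF factor of endothelial cells and early endoderm, had 170 and 174 counts in Veh and 28 and 20 counts in NRRA. It fell by 2.98 on the log2 scale (SE 0.22, edgeR adjusted p = 8.85e-12). Of 5 endothelial cell markers, Pecam1 (log2 fold change -1.96) and Kdr (-1.46) were called lower and 3 were not called. These 5 markers together held 0.00183% and 0.00184% of counts in Veh, against 0.000835% and 0.000822% in NRRA, and their part in the fall of Sox7 was not tested. Sox8, the close relative of Sox9, had 198 and 215 counts in Veh and 343 and 344 counts in NRRA and rose (log2 fold change 0.59, SE 0.11, edgeR adjusted p = 7.74e-05), whereas the Sox9 value was lower in NRRA. Sox10, the other SOXE gene, was not called (0.28, edgeR adjusted p = 0.326), and neither was Sox18 (-0.24, edgeR adjusted p = 0.491). Sry and Sox17 had 0 counts in every library, and Sox14 and Sox21 had at most 13.

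SOX proteins bind many targets next to a POU factor, and 13 POU genes were examined for that reason. Of the 8 that passed the filter, 3 rose, 4 fell and 1 was not called (56.4% called over all genes), with a median log2 fold change of -0.15. Pou6f1 was called lower (log2 fold change -0.22, edgeR adjusted p = 0.0111). That call was lost with DESeq2 (adjusted p = 0.0756), with library size only (0.126) and without NRRA replicate 2 (log2 fold change -0.18). Pou2f3 lost its higher call with DESeq2 (adjusted p = 0.0513). Pou3f3 lost its lower call without Veh replicate 1 (log2 fold change -0.96). Pou5f1, the gene of OCT4 and the known partner of SOX2, had 92.1 and 103 CPM in Veh and 18.4 and 17.8 CPM in NRRA. It fell by 2.43 on the log2 scale (SE 0.06, edgeR adjusted p = 9.38e-22), a value near that of Sox2. Pou3f1, a factor of undifferentiated spermatogonia, fell from 221 and 208 CPM to 78.4 and 83.0 CPM (log2 fold change -1.41, edgeR adjusted p = 4.22e-21). Pou4f1, known from sensory neurons, had a difference close to that of Sox3. Its counts rose from 271 and 309 in Veh to 1021 and 877 in NRRA (log2 fold change 1.57, SE 0.08, edgeR adjusted p = 9.13e-15). Pou2f1, the broadly expressed OCT1 gene, rose from 120 and 121 CPM to 172 and 167 CPM (log2 fold change 0.49, edgeR adjusted p = 1.53e-12).

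Outside the SOX family, 11 genes with an HMG box were tested, of which 6 rose, 3 fell and 2 were not called (56.4% called over all genes), with a median log2 fold change of 0.18. The higher call of Tox4 (log2 fold change 0.12) was lost without NRRA replicate 1 (0.11). Tox2, a factor studied in lymphocytes, had 2.36 and 1.75 CPM in Veh and 6.42 and 7.14 CPM in NRRA (log2 fold change 1.73, SE 0.18, edgeR adjusted p = 5.02e-09). The genes of the factors through which Wnt signals reach DNA went in both directions. Lef1 (log2 fold change -1.30, edgeR adjusted p = 0.000167) and Tcf7l2 (-0.93, edgeR adjusted p = 2.73e-09) fell, Tcf7l1 rose (0.47, edgeR adjusted p = 9.44e-07), and Tcf7 was not called (0.04, edgeR adjusted p = 0.339).

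**Figure D4:**
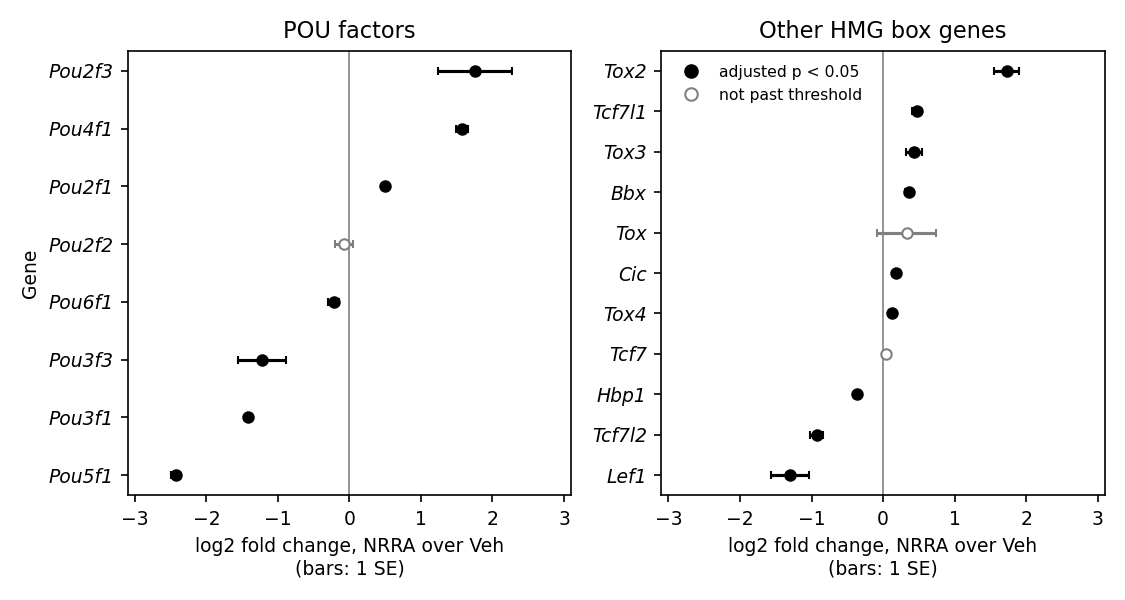
Log2 fold change of NRRA over Veh, with bars of 1 SE, for the 8 tested POU genes (left) and the 11 tested HMG box genes outside the SOX family (right), filled where the adjusted p was under 0.05. Pou5f1 lies at -2.43 and Pou2f3, Pou4f1 and Tox2 lie between 1.57 and 1.75, so both lists hold genes on either side of 0.

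Sox3 is known from spermatogonia that commit to differentiation, and 10 genes of spermatogonia between the progenitor and the differentiating state were set beside it. All 10 were called (56.4% over all genes), 4 higher and 6 lower, with a median log2 fold change of -0.35 and values from -5.28 to 7.56. Without Veh replicate 1, Dmrtb1 (-0.47) was no longer called and 5 were lower. The ends of that range were Nanos3, which keeps spermatogonia undifferentiated, and Stra8, which RA induces before meiosis. Stra8 went from 9.62 and 10.1 CPM in Veh up to 1864 and 1853 CPM (log2 fold change 7.56, SE 0.04, edgeR adjusted p = 1.14e-37). Kit, the receptor of differentiating spermatogonia, likewise went from 10.4 and 11.0 CPM up to 512 and 521 CPM (log2 fold change 5.59, SE 0.04, edgeR adjusted p = 6.42e-33). Neurog3, a marker of progenitor spermatogonia whose level depends on SOX3 in the testis, had 59 and 103 counts in Veh and 9 and 7 counts in NRRA. It fell by 3.45 on the log2 scale (SE 0.37, edgeR adjusted p = 8.34e-09), the opposite direction to the Sox3 value. Sohlh1, a factor of differentiating spermatogonia, rose from 52.4 and 52.2 CPM to 98.8 and 102 CPM (log2 fold change 0.94, edgeR adjusted p = 5.16e-16). The germ cell gene Ddx4 had 273 and 268 CPM in Veh and 271 and 278 CPM in NRRA and was not called, except as higher with library size only. Of the 7 germ cell markers examined, 4 were called higher, 2 lower and 1 was not called (56.4% called over all genes), with a lowest value of -0.15. Together they made up 0.162% and 0.169% of counts in Veh and 0.21% in both NRRA libraries, and their part in the Sox3 value was not tested.

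Sox9 drives the collagen and matrix genes of cartilage together with Sox5 and Sox6, and 10 such genes were examined because the values of Sox5 and Sox9 were lower in NRRA. Of the 8 that passed the filter, 4 rose, 2 fell and 2 were not called (56.4% called over all genes), with a median log2 fold change of 0.43, so the list did not move in 1 direction. Col9a2 lost its higher call without NRRA replicate 1 (adjusted p = 0.0502), and Col9a3 was called lower without Veh replicate 1 (-0.53), which left 3 higher or gave 3 lower. Col2a1, the main collagen of cartilage, had 147 CPM in both Veh libraries and 59.7 and 58.8 CPM in NRRA (log2 fold change -1.31, SE 0.04, edgeR adjusted p = 3.16e-20). Acan, the gene of aggrecan, had 163 and 198 counts in Veh and 444 and 418 counts in NRRA (log2 fold change 1.12, SE 0.11, edgeR adjusted p = 3.00e-09). Comp likewise rose from 80 and 97 counts to 310 and 282 counts (log2 fold change 1.60, edgeR adjusted p = 3.94e-10). Hapln1, whose product links aggrecan to hyaluronan, fell by 3.16 on the log2 scale (SE 0.45, edgeR adjusted p = 1.22e-06).

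The genes whose profile over the 4 libraries was most like that of Sox3, by the distance between centred log2 CPM values, were Clstn2 (distance 0.110), Ncan (0.161), Hcn2 (0.162), Zfyve28 (0.193) and Gprasp2 (0.232). Clstn2, a calsyntenin of neurons, had 188 and 140 counts in Veh and 675 and 634 counts in NRRA. Ncan, a proteoglycan of the brain, had 154 and 135 counts in Veh and 531 and 533 counts in NRRA. Hcn2, a pacemaker channel, had 182 and 143 counts in Veh and 627 and 571 counts in NRRA. Like Sox3, all 5 genes were higher in Veh replicate 1 than in Veh replicate 2 by CPM. Their choice by distance over the same 4 libraries favours that pattern, so nothing is read from it. The likeness is a description over 4 libraries of only 2 groups.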

How the data were processed

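Poly(A) RNA of 2 Veh and 2 NRRA libraries was analysed, with groups and replicate numbers taken from the sample titles. The authors deposited raw counts per gene as whole numbers, and per the submitters' processing notes the reads were handled with bcl2fastq, STAR 2.6.1c and featureCounts 1.6.4 on mm10. The annotation release and the strand setting are not given in the sources used here. The study's methods name a stranded oligo-dT kit and DESeq2.

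From these counts, genes were filtered with filterByExpr, scaled with TMM and tested across the whole table with edgeR 4.0.16 (quasi-likelihood F test, robust, R 4.3.3), with Benjamini-Hochberg adjustment at 0.05 and a prior count of 2 for log2 CPM. The fit was tested on simulated data that had the same replicate spread for every gene, a spread not taken from these libraries. Alternatives were DESeq2 1.42.0, relative log expression (RLE) scaling, library size only, no filter, a replicate block, coding length and leaving out each library. Same-numbered libraries shared no deviation from their group means (correlation 0.029 over 11326 genes), so the numbers were not taken as pairs. The numbers are those of the titles, and the descriptions and columns give the Veh libraries the next higher number. Counts of replicates differed by more than sampling noise (chi-square per degree of freedom 2.45 in Veh and 1.99 in NRRA). The common coefficient of variation between replicates beyond that noise was 2.61% in the edgeR fit.

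Lengths, coordinates and HMG box sequences came from GENCODE M21, which holds 99.5% of the table's gene identifiers, with paralog stretches from BLAST 2.17.0. The text names every SOX gene of the set, the genes of the fixed lists that a statement needs, and the 5 genes nearest to Sox3 in centred log2 CPM among genes whose mean log2 CPM reached 3. The genes, lists and tests were chosen with earlier results of these data known.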

Additional observations from a re-analysis of the deposited data

How the results depend on the processing

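Of 90 recomputed values of the 10 SOX genes, 86 kept their sign and their side of the threshold, apart from Sox6, which was never called and turned to 0.03 without Veh replicate 1. The other 4 were all of Sox15, which was no longer called with library size only (log2 fold change -0.45), with DESeq2 (-0.53), without NRRA replicate 2 (-0.47) or without Veh replicate 2 (-0.19). The number called lower was then 4 in place of 5, and the number called higher stayed at 4. With coding length in place of exon length, Sox3 ranked 5 of 10 in Veh and 3 of 10 in NRRA in place of 4 and 2, its mean share of the summed level was 2.07% and 11.3%, and its mean ratio to Sox2 was 0.143 and 2.38. Over all genes, 5654 were called higher and 5752 lower, 4529 and 4625 with DESeq2, 6962 and 4593 with library size only, and 4940 to 5317 and 5122 to 5384 when 1 library was left out. With the replicate block the counts were 5772 and 5836, Sox3 stayed at 1.83, and no call of the 10 genes changed. Among 85 other tested genes (the lists, the cell type markers and the 5 genes most like Sox3), 726 recomputed values kept their call, 34 lost it and 5 gained it, of which 1 was Tcf7 (0.12 with library size only). The losses included feeder and germ cell markers. The germ cell markers called higher numbered 4, or 3 with DESeq2 and without either NRRA replicate, as Dazl was then not called, and 5 with library size only. Those called lower numbered 2, or 1 with RLE scaling, with no filter and with DESeq2, 0 with library size only, and 1 to 2 when 1 library was left out. The Sertoli cell genes called higher numbered 2, or 1 with DESeq2 and 1 to 2 when 1 library was left out, and 0 to 1 were then called lower. The number of libraries limits every SE, and Sox6 and Sox15 rest on at most 54 and 147 counts a library.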

Other observations

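Pou2f3, a POU factor of tuft cells, rose by 1.75 on the log2 scale (SE 0.52, edgeR adjusted p = 0.0053), and with DESeq2 its adjusted p was 0.0513. Pou3f3 fell with a log2 fold change of -1.22 (edgeR adjusted p = 0.00325) and was no longer called without Veh replicate 1.

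Matn3, a matrix protein of cartilage, had 2 counts in each Veh library and 104 and 96 counts in the NRRA libraries. The study tied Sox3 and a set of other transcription factors to nutrient restriction given without RA, in cultures of a hybrid strain background. These libraries compare the combined treatment with Veh in CD1 cultures, and only some members of that set are given here. Of that set, Sohlh1 (log2 fold change 0.94, edgeR adjusted p = 5.16e-16) rose, and so did Ascl2, named here after its values were seen, with 62 and 85 counts in Veh and 252 and 299 counts in NRRA (1.77, edgeR adjusted p = 1.01e-09). Bcl11a, a zinc finger repressor, had 13.3 and 14.9 CPM in Veh and 3.87 and 4.82 CPM in NRRA (log2 fold change -1.70, SE 0.13, edgeR adjusted p = 1.20e-11), and Pou2f2 was not called (-0.08, edgeR adjusted p = 0.62).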
